A study of Mus musculus with 6 samples.

Results

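The genes described here are 7 transcription regulators that direct the fate of T cells: Tox, Tcf7, Eomes, Tbx21, Id2, Id3 and Prdm1. They were chosen by name, from 16158 genes measured, and all 7 had a column in the data of every mouse. The data are single-cell RNA libraries (10x Genomics 5' kit) made from skin of 6 NINJA mice aged 6 to 12 weeks, a strain that carries a neoantigen that can be switched on. The 3 groups, with 2 mice each, are labelled NO_AG, AG and AG_CPI, read here as mice without antigen, with antigen, and with antigen plus a treatment called CPI that the labels do not spell out. In all of them the sequenced cells came from the area of skin treated with 4-OH-Tam, the active form of tamoxifen. The labels say that P14 CD8 T cells were recovered from each mouse. These T cells carry a transgenic receptor that uses the beta-chain segment Trbv13-3, so a Trbv13-3 transcript enriches for P14 cells without proving the origin of a single cell. The series concerns how the inhibitory receptor PD-1 restrains effector CD8 T cells that enter the skin.

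Each of these regulators is known for a branch point in the life of a CD8 T cell. Tcf7 (the protein TCF-1) maintains naive, memory and stem-like cells, and Id3 is commonly found with it. Id2 and Prdm1 (Blimp-1) accompany effector and tissue-resident differentiation, Tbx21 (T-bet) and its relative Eomes drive the cytotoxic and interferon programme, and Tox is induced by sustained antigen signalling and sustains the exhausted state. Id2 and Id3 have no DNA-binding region of their own and act by capturing E proteins, the factors that bind E-box sequences. The same genes work in other lymphocytes: Id2 in all innate lymphoid cells, Tbx21 and Eomes in natural killer cells, Tcf7 and Tox in innate lymphoid precursors, and Prdm1 in effector regulatory T cells.

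In the GENCODE vM21 annotation of GRCm38 (mm10) Tox lies on chromosome 4, from 6686353 to 6991557 on the minus strand, and Id3 on the same chromosome from 136143497 to 136145755 on the plus strand. Eomes spans chromosome 9 from 118478212 to 118486132 on the plus strand, and Prdm1 chromosome 10 from 44437177 to 44528501 on the minus strand. Tcf7 (52252371 to 52283014) and Tbx21 (97098071 to 97115331) both lie on the minus strand of chromosome 11, and Id2 lies on the minus strand of chromosome 12 from 25093799 to 25097140. Levels are whole-gene values, so they do not separate exons, UTRs or isoforms.

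The libraries held 1736 to 4972 cells and 5903724 to 24656382 unique molecular identifiers (UMIs, each standing for 1 captured RNA molecule), with a median of 2527 to 4744 UMIs per cell. After removal of failed cells and doublets 20464 of 21178 cells remained. The cells called CD8 T below had a Cd8a or Cd8b1 UMI and no Cd4 or Trdc UMI, and lay in clusters led by alpha-beta T cell genes. There were 111 and 360 under NO_AG, 742 and 532 under AG, then 725 and 806 under AG_CPI. The label held against its markers, since Cd3e was found in 91.5 to 98.1% of CD8 T and the natural killer marker Ncr1 in none of them in 5 mice and in 0.138% in AG_CPI mouse 1. Summed keratinocyte markers lay between 4.25 and 8.25 UMIs per 10000 in CD8 T. Summed monocyte and macrophage markers were 0.139 and 0.146 under NO_AG, 1.25 and 3.99 under AG, then 2.65 and 1.80 under AG_CPI. They moved with the groups, and their part in the results was not tested. AG_CPI mouse 1 stood apart in sex-linked genes: Xist was found in 53.8% of its CD8 T against 67.1 to 75.7% in the other mice, and Ddx3y in 2.48% against 0. Between pairs of libraries 5 to 35 cell barcodes were shared.

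A Trbv13-3 UMI was found in 2 and 11 of them under NO_AG, 274 and 280 under AG, then 401 and 495 under AG_CPI. The remaining cells without such a UMI numbered 109 and 349, 468 and 252, and 324 and 311. Their median depth was 2186 to 2611 UMIs, against 2290 to 3381 in the cells with Trbv13-3 of the AG and AG_CPI mice. Finding the segment depends on depth, so the cells without it can include P14 cells whose beta chain was not captured. A stricter comparison set was therefore kept beside it, the 76 to 354 cells per mouse in which another beta segment was found. Throughout, a level is the mean number of UMIs per 10000 UMIs of the cell, averaged over the cells of 1 mouse, and n is 2 mice per group. In such averages fewer expressing cells and less RNA per cell cannot be told apart.

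The promoter windows of Tcf7 and Id3, the pair whose levels dropped together in the cells without Trbv13-3 under AG_CPI, are shown as 250 bases before to 50 after the RefSeq gene start (GRCm38.p6). Both were picked after those levels were known, and 6 of the 7 members had a window in the table used. Capitals mark an E-box, the letters CANNTG, which read the same on both strands and are the sequence type that E proteins, the partners captured by Id2 and Id3, bind.
Tcf7, chr11:52282546-52282845, minus strand: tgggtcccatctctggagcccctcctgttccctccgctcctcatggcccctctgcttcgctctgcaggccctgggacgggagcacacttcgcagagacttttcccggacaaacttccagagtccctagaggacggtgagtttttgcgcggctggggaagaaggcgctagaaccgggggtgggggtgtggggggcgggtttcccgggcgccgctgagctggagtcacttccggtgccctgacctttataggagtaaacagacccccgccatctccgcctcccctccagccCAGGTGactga
Id3, chr4:136143572-136143871, plus strand: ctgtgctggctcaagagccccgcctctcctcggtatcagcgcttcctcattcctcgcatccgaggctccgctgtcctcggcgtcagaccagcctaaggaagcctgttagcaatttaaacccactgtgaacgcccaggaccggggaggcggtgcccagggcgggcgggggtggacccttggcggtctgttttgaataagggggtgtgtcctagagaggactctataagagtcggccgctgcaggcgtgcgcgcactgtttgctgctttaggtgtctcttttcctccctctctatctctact
The Tcf7 window holds 1 E-box, CAGGTG, which begins at base 39 after the start, and a second Tcf7 start, chr11:52282965-52283264, has 1 as well, CAGCTG. The Id3 window holds none of these letters. An E-box occurred in 72.3% of 32851 windows of this length, so its presence is common. The letters CTTTGA, or TCAAAG on the other strand, which belong to the site of TCF-1, were found in 16% of windows and in none of the members' windows. A match is a description only, and a missing match says nothing about the factor.

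Tcf7 fell with treatment. Among all CD8 T its level was 1.33 and 1.43 in the NO_AG mice, 0.885 and 0.605 in the AG mice, and 0.264 and 0.219 in the AG_CPI mice. The groups did not overlap, and each step from antigen off to antigen on to AG_CPI was downward. A Tcf7 UMI was found in 27.9 and 29.7% of NO_AG cells, 17.5 and 12.0% of AG cells and 4.55 and 4.96% of AG_CPI cells (for NO_AG mouse 1, a 95% Wilson interval of 20.4 to 36.9%, which covers counting error only). The linear model of limma was fitted on the log2 scale to 7219 genes over all 6 mice, and a gene is called where the p adjusted over all of them is under 0.05. It called 263 genes in AG_CPI against NO_AG (3.64% of those tested), with Tcf7 at -2.08 (SE 0.22, adjusted p = 1.82e-05). In AG_CPI against AG only 14 genes were called (0.194% of those tested), and Tcf7 was 1 of them at -1.32 (SE 0.22, adjusted p = 0.0182). In AG against NO_AG 122 genes were called (1.69% of those tested), and Tcf7, at -0.75 (adjusted p = 0.112), was not.

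The larger drop was kept in all 17 alternative analyses of these cells. The AG_CPI against AG call was kept in 7 of 17. It was lost without NO_AG mouse 1 (adjusted p = 0.0535), NO_AG mouse 2 (0.0573), AG mouse 1 (-1.08, 0.125), AG_CPI mouse 1 (-1.43, 0.0751) or AG_CPI mouse 2 (-1.22, 0.191). The difference without either NO_AG mouse, -1.33 or -1.32, was close to that with all mice. The other losses came without the filter on low values (0.232), with Trdc UMIs admitted to the gate (0.0665), with the gate on Cd3 UMIs (0.291), after thinning (0.129) and by ratio of summed UMIs (0.182). The AG against NO_AG difference was called without AG mouse 1 (adjusted p = 0.0482), and at -1.06 (adjusted p = 0.0211) when cells with Trdc UMIs were admitted to the gate. No other member was called in AG_CPI against AG, where the log2 differences were -0.89 for Id3, -0.82 for Eomes, -0.57 for Tbx21, -0.17 for Tox, 0.15 for Id2 and 0.26 for Prdm1.

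The decline was not spread evenly over the CD8 T cells. In the cells without Trbv13-3 the Tcf7 level was 1.35 and 1.41 under NO_AG, 1.28 and 1.16 under AG, then 0.332 and 0.283 under AG_CPI. The AG mice lay just below the NO_AG mice (log2 difference -0.081, not called), and both AG_CPI mice lay far below all 4. The group means were 1.38 ± 0.0431, 1.22 ± 0.0901 and 0.307 ± 0.0342 (SD, n = 2). These means rest on 38 and 140, 156 and 67, and 22 and 24 Tcf7 UMIs. In this subset, where 7070 genes were tested, AG_CPI against AG called 46 genes (0.651% of those tested) and Tcf7 fell by 1.73 (SE 0.23, adjusted p = 3.49e-05). AG_CPI against NO_AG called 265 genes (3.75% of those tested) with Tcf7 at -1.81 (SE 0.23, adjusted p = 2.56e-06), whereas AG against NO_AG called 47 (0.665% of those tested) and no member, with differences from -0.081 for Tcf7 to 0.61 for Tox. The first of these calls was kept in 17 of 18 alternatives, being lost when the gate used Cd3 UMIs in place of clusters (-1.40, adjusted p = 0.0983), and the second in all 18. With cells thinned to 1500 UMIs the share with a Tcf7 UMI was 20.2 and 18.9%, 16.7 and 15.1%, and 4.94 and 4.18%, the same order at equal depth.

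In the cells with Trbv13-3 Tcf7 was low in both antigen groups, at 0.206 and 0.110 in AG and 0.210 and 0.178 in AG_CPI, from 11 to 26 UMIs per mouse. The 2 groups overlapped, with a log2 difference of 0.19 that was not called. NO_AG mouse 2 had 5 Tcf7 UMIs in its 11 such cells, a level of 1.91 that is too thin for a comparison. A Tcf7 UMI was found in 3.21 to 4.44% of the AG and AG_CPI cells with Trbv13-3. Keratinocyte-like cells, which should lack Tcf7, gave 1.90 to 4.26% at median depths of 2212 to 7178 UMIs. The 2 ranges overlap, so the share alone is not read as expression. The level with Trbv13-3, 0.110 to 0.210, lay above the 0.0296 to 0.0884 of keratinocyte-like cells, and the part of free RNA in it was not tested.

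Id3, the inhibitor of E proteins often found beside Tcf7, dropped in the same subset. Without Trbv13-3 it stood at 0.464 and 0.910 under NO_AG, 0.950 and 0.345 under AG, then 0.0823 and 0.128 under AG_CPI, from 12 and 93, 120 and 24, and 6 and 11 UMIs. Both AG_CPI mice were below all 4 other mice, while NO_AG and AG overlapped widely (-0.061, not called). The fall was -1.78 against AG (SE 0.37, adjusted p = 0.0313) and -1.84 against NO_AG (SE 0.37, adjusted p = 0.00761). The AG comparison held in 9 of 18 alternatives. It was lost without AG mouse 1 (-1.15, adjusted p = 0.247) or AG_CPI mouse 1 (-1.63, 0.143), and a pseudocount of 0.5 brought it to -0.90 (0.274). No filter, Trdc admitted, the Cd3 gate, members kept among the variable genes, thinning and ratios of summed UMIs each ended it too (adjusted p of 0.0787 to 0.379). The NO_AG comparison held in 13 of 18 and was lost without NO_AG mouse 2 (-1.46, adjusted p = 0.0969) and with a pseudocount of 0.5 (-0.92, 0.107). The Cd3 gate (0.0586), members kept among the variable genes (0.0837) and thinning (0.0945) also ended it. Among all CD8 T, Id3 read 0.472 and 0.891, 0.665 and 0.209, and 0.146 and 0.193, and AG_CPI against NO_AG (-1.45, adjusted p = 0.0876) missed the threshold, as did AG against NO_AG (-0.57). The former passed without AG mouse 1 (0.0034), without AG mouse 2 (0.00354) and with the Cd3 gate (0.0227).

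**Figure D1:**
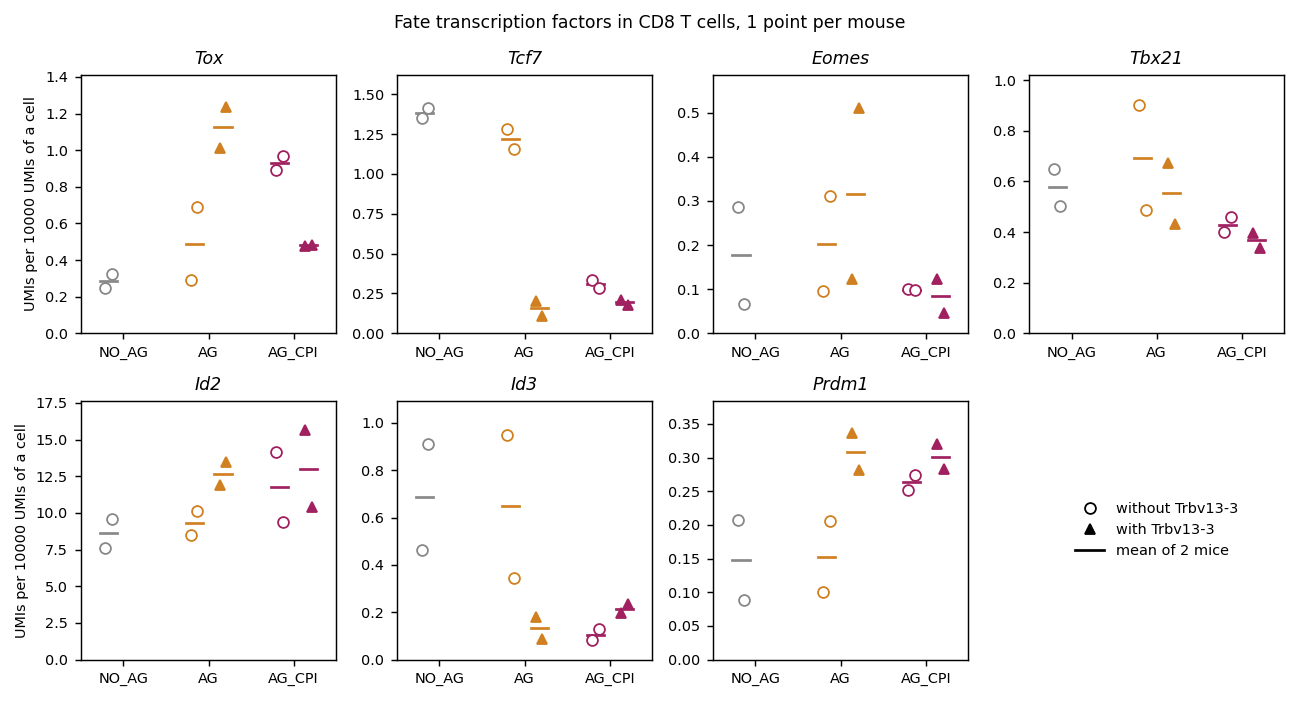
Level of each of the 7 regulators (y axis, mean UMIs per 10000) by group (x axis) in CD8 T cells without Trbv13-3 (circles) and with it (triangles), 1 point per mouse and a line at the mean of 2 mice; cells with Trbv13-3 of the NO_AG mice are not drawn because there were 2 and 11. Tcf7 without Trbv13-3 stays between 1.16 and 1.41 in NO_AG and AG and lies at 0.283 and 0.332 in AG_CPI, and Tox of the 2 subsets changes places between AG and AG_CPI.

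Tox, the regulator induced by sustained antigen signalling, rose in CD8 T of both antigen groups, and the subset with the higher level differed between them. Among all CD8 T it was 0.241 and 0.327 under NO_AG, 0.558 and 0.976 under AG, then 0.662 and 0.672 under AG_CPI. Both antigen groups lay above both NO_AG mice and overlapped each other. Tox rose by 1.20 in AG against NO_AG (SE 0.25, adjusted p = 0.0163) and by 1.04 in AG_CPI against NO_AG (SE 0.25, adjusted p = 0.0252). The first call was kept in 12 of 17 alternatives. It was lost without NO_AG mouse 1 (1.06, adjusted p = 0.208) or AG mouse 2 (0.85, 0.263), without the filter on low values (0.111), with members kept among the variable genes (0.0934) and with the Cd3 gate (0.102). The second was kept in 10 of 17. It was lost without NO_AG mouse 1 (0.89, adjusted p = 0.191), AG_CPI mouse 1 (1.04, 0.174) or AG_CPI mouse 2 (1.03, 0.164), without the filter (0.102), with members kept among the variable genes (0.11), with Trdc admitted (0.062) and after thinning (0.0567).

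In the cells with Trbv13-3 Tox was at 1.01 and 1.24 in AG and at 0.476 and 0.485 in AG_CPI, from 49 to 126 UMIs per mouse (means 1.12 ± 0.157 and 0.481 ± 0.00613, SD, n = 2). Both AG_CPI mice had less than either AG mouse, and the share of cells with a Tox UMI was 26.6 and 32.5% against 10.2 and 12.9%. Of 6991 genes tested 47 were called (0.672% of those tested), and Tox, at -1.10 (SE 0.21, adjusted p = 0.0279), was the 1 member among them. Thinned to 1500 UMIs the shares were 14.2 and 18.2% against 5.99 and 6.26%. The median depth of these cells was 3381 and 3250 UMIs in AG and 2290 and 2649 in AG_CPI. The call was kept in 12 of 16 alternatives and lost without AG mouse 2 (-0.97, adjusted p = 0.0691), without AG_CPI mouse 1 (-1.08, 0.435) or 2 (-1.10, 0.553) and under the replicate block (0.139).

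In the cells without Trbv13-3 the order was the opposite. Tox was 0.246 and 0.323 under NO_AG, 0.291 and 0.689 under AG, then 0.891 and 0.969 under AG_CPI, so that NO_AG and AG overlapped (0.61, adjusted p = 0.506) and both AG_CPI mice lay above all others. It rose by 1.47 in AG_CPI against NO_AG (SE 0.29, adjusted p = 0.00149), a call kept in 17 of 18 alternatives and lost without NO_AG mouse 1 (1.35, adjusted p = 0.0554). The difference from AG, 0.86 (adjusted p = 0.252), was not called with all mice and was called without AG mouse 2 (1.36, adjusted p = 0.0108). In the stricter set with another beta segment Tox read 0.198 and 0.346, 0.188 and 0.351, and 1.44 and 1.40, and there the difference between AG_CPI and AG was 2.05 (adjusted p = 0.000215). The tests between groups in that set were added after the data were seen.

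These CD8 T came from different clusters in the 3 groups, which bears on every level above. A cluster led by Cd40lg, Cxcr3 and receptor segments other than Trbv13-3 held 78.4 and 79.2% of NO_AG cells, 52.4 and 20.9% of AG cells and 5.10 and 6.33% of AG_CPI cells. A cluster led by Ccl1, Gzma, Gzmf, Trbv13-3 and Ifng held 0.901 and 1.94%, 22.5 and 14.3%, and 57.7 and 60.9%. A change in level between groups and a change in which cells were present cannot be told apart here. The p-values given so far rest on the spread between these mice, in part as shared over genes. An exact permutation test of 2 mice against 2 cannot go below p = 0.333.

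Id2, the E-protein inhibitor of effector cells, was found in 78.4 to 90.8% of CD8 T cells. Its level was 7.75 and 9.62 under NO_AG, 9.77 and 11.9 under AG, then 14.98 and 10.0 under AG_CPI. All 4 antigen mice lay above both NO_AG mice, but the differences, 0.39 in AG (adjusted p = 0.384) and 0.54 in AG_CPI (adjusted p = 0.142), were not called. Without AG_CPI mouse 2 the second was (0.83, adjusted p = 0.0484). In the cells without Trbv13-3 Id2 differed by 0.21 in AG and 0.48 in AG_CPI from NO_AG, and by 0.27 between AG_CPI and AG, none of them called. Without AG_CPI mouse 2 the AG_CPI difference from NO_AG was called there too (0.80, adjusted p = 0.036). With Trbv13-3 it stood at 11.9 and 13.4 in AG and 15.6 and 10.4 in AG_CPI, overlapping groups with a difference of -0.019. Prdm1, the repressor that accompanies terminal differentiation, was 0.203 and 0.086, 0.188 and 0.245, and 0.290 and 0.279. Both AG_CPI mice were above the other 4, without a call (0.71 against NO_AG, adjusted p = 0.172, where AG differed by 0.45). In the cells without Trbv13-3 it was 0.207 and 0.0888 under NO_AG, 0.09999 and 0.206 under AG, then 0.253 and 0.275 under AG_CPI. Both AG_CPI mice were again the highest, with differences of 0.62 from NO_AG, 0.54 from AG and 0.087 between those, none called. With Trbv13-3 the difference between AG_CPI and AG was -0.050.

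Tbx21 and Eomes, the pair of T-box factors behind the cytotoxic programme, passed no test between groups among all CD8 T. Tbx21 was 0.656 and 0.542 under NO_AG, 0.817 and 0.457 under AG, then 0.398 and 0.386 under AG_CPI. Both AG_CPI mice lay below the other 4, at a log2 difference of -0.47 from NO_AG (adjusted p = 0.366), and AG differed from NO_AG by 0.10. This order did not hold with Trdc UMIs admitted to the gate, where Tbx21 was 0.475 and 0.483 in AG_CPI and 0.428 in AG mouse 2. In the cells without Trbv13-3 it was 0.651 and 0.504 under NO_AG, 0.901 and 0.486 under AG, then 0.398 and 0.460 under AG_CPI, with differences of 0.27 (AG), -0.30 (AG_CPI) and -0.57 (AG_CPI against AG). Both AG_CPI mice had the least in either subset, since with Trbv13-3 Tbx21 was 0.673 and 0.432 in AG and 0.397 and 0.339 in AG_CPI (-0.48), and none of these differences was called. Eomes was sparse at 0.282 and 0.064, 0.106 and 0.416, and 0.112 and 0.066, and all 3 groups overlapped, with differences from NO_AG of 0.42 in AG and -0.40 in AG_CPI. Without Trbv13-3 the differences were 0.21 and -0.32, and -0.53 between AG_CPI and AG, none called. In the cells with Trbv13-3 Eomes was 0.123 and 0.510 in AG and 0.122 and 0.0452 in AG_CPI, so that both AG_CPI mice lay below both AG mice, although mouse 1 of each group was nearly equal. The difference, -1.05 (adjusted p = 0.52), was not called, nor was it in 13 of 15 alternatives, the replicate block among them. The 2 exceptions were a block with the numbers crossed, which is an arbitrary pairing, and the fit without AG mouse 1. Without AG mouse 1 it was called (-1.80, adjusted p = 0.0107), in a fit whose spread came from the 2 AG_CPI mice alone. Leaving out 1 mouse at a time gave -1.80 to -0.33. Id3 in these cells differed by 0.45 between AG_CPI and AG, not called.

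Cells with and without Trbv13-3 of the same mouse were compared next, a contrast in which the mouse is its own control. In the AG mice the cells with Trbv13-3 had less Tcf7 and Id3 and more Tox, Id2 and Prdm1. Of 7393 genes 649 were called there (8.78% of those tested), 5 of the 7 members among them. Tcf7 fell by 2.40 (SE 0.22, adjusted p = 9.52e-24), with ratios of -2.18 and -2.58 in the 2 mice. Id3 fell by 1.60 (SE 0.25, adjusted p = 1.83e-08; -1.92 and -1.25 by mouse). Tox rose by 1.13 (SE 0.18, adjusted p = 5.09e-08; 1.51 and 0.76), Id2 by 0.43 (SE 0.092, adjusted p = 0.00014; 0.48 and 0.41) and Prdm1 by 0.72 (SE 0.24, adjusted p = 0.0396; 1.13 and 0.32). Tbx21 (-0.27) and Eomes (0.37) were not called. The very small p-values come from a spread shared by all genes. In this fit limma gave that spread prior degrees of freedom without limit (14300 for Tox), beside 2 residual ones. A member's own spread between mice therefore had almost no weight in the p-values of this contrast, in either group, or of its change between groups. Prdm1 kept its call in 3 of 16 alternatives. Among others it was lost without AG mouse 1 (0.32), AG_CPI mouse 1 (0.71) or AG_CPI mouse 2 (0.71). Without the mouse in the model Id2 lost its call (adjusted p = 0.561), as Prdm1 (0.276), Tox (0.0606) and Id3 (0.0553) did.

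In the AG_CPI mice the same contrast looked different. It called 65 genes (0.879% of those tested), and the 1 member among them was Tox, which fell by 0.85 in the cells with Trbv13-3 (SE 0.18, adjusted p = 0.000892; -0.78 and -0.87 by mouse). This call was kept in 12 of 16 alternatives. It was lost without AG_CPI mouse 1 (-0.88, adjusted p = 0.686), without AG_CPI mouse 2 (-0.81, 0.997), with Trdc UMIs admitted to the gate (-0.76, 0.198) and without the mouse in the model (-0.85, adjusted p of 1). Tcf7 differed by -0.49 (adjusted p = 0.679) and Id3 by 0.61 (adjusted p = 0.475). The other members differed by -0.20 (Tbx21), -0.16 (Eomes), 0.12 (Id2) and 0.12 (Prdm1), none called. Against the stricter set with another beta segment, Tcf7 was lower in the cells with Trbv13-3 in both AG_CPI mice too (-1.17 and -0.86 by mouse), at -1.03 (adjusted p = 0.00687).

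The change of this contrast between the groups was tested directly as an interaction, which called 306 genes (4.14% of those tested) and 3 members. Tox shifted by -1.97 from AG to AG_CPI (SE 0.26, adjusted p = 7.49e-12), Tcf7 by 1.91 (SE 0.32, adjusted p = 3.13e-07) and Id3 by 2.21 (SE 0.35, adjusted p = 9.9e-08). Prdm1 (-0.60), Eomes (-0.53), Id2 (-0.31) and Tbx21 (0.072) were not called. For Tox both AG mice had more in the cells with Trbv13-3 and both AG_CPI mice had less. In AG_CPI the Id3 level was 0.0823 and 0.128 without Trbv13-3 and 0.197 and 0.233 with it, the reverse of its order in AG. This Id3 difference in AG_CPI was not called, and with the gate on Cd3 UMIs it was -0.0743. Tcf7 in AG_CPI was 0.332 and 0.283 without Trbv13-3, 0.597 and 0.404 with another beta segment and 0.210 and 0.178 with Trbv13-3. It was lowest with Trbv13-3 in both mice. Each of the 3 calls was kept in 15 of 16 alternatives and lost without the mouse in the model (adjusted p = 0.054 for Tox, 0.0509 for Tcf7 and 0.155 for Id3). Against cells with another beta segment the ratios of Tox were 1.95 and 1.57 in AG and -1.42 and -1.36 in AG_CPI.

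**Figure D2:**
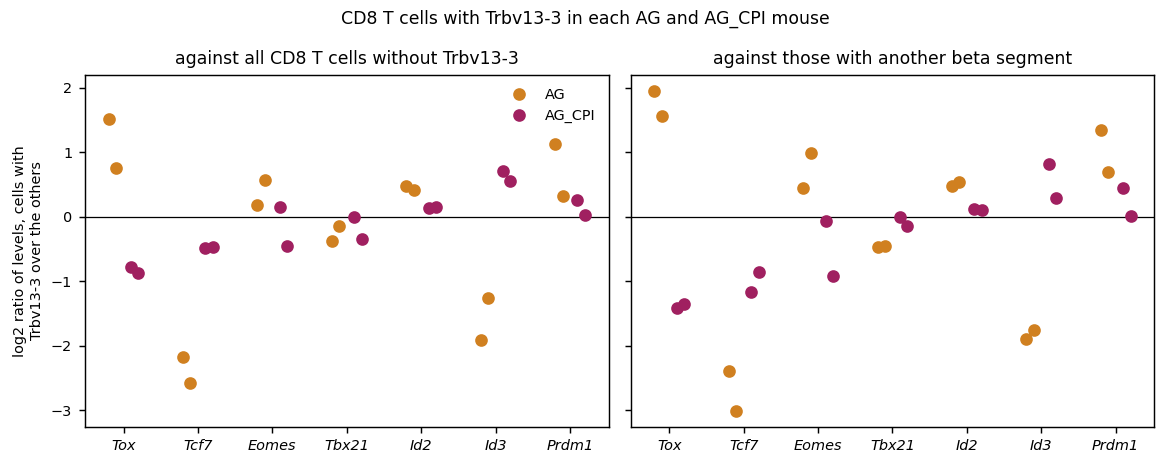
Log2 ratio of the level in cells with Trbv13-3 over cells without it (left) and over cells with another beta segment (right) for the 7 regulators, 1 point per AG or AG_CPI mouse, on means + 0.1. Tox is above 0 in both AG mice and below 0 in both AG_CPI mice on either side, and Tcf7 is furthest below 0 in the AG mice.

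Genes known to work with these regulators were followed as lists. Of 9 inhibitory receptor and exhaustion genes linked to Tox, 7 rose and none fell in CD8 T of AG against NO_AG (median log2 difference 2.21, against about 0 over all genes, of which 1.69% were called), led by Lag3 (3.79), Havcr2 (3.20), Pdcd1, which encodes PD-1 (3.16), and Tigit (3.07). Pdcd1 was 0.108 and 0.0897 under NO_AG, 1.40 and 1.85 under AG, then 2.23 and 2.53 under AG_CPI. Some genes of this list lay near 0 under NO_AG, such as Entpd1 (0 and 0.00987), Ctla4 (0.0658 and 0.0191) and Cd200r1 (0.0220 and 0.0569). They passed the filter on low values through the antigen mice and had little room to fall, which limits the count by direction and the median. Of 12 effector genes linked to Tbx21 and Eomes 7 rose and none fell (median 1.17), among them Gzma (2.91), Klrd1 (2.11), Prf1 (1.85) and Ccl5 (1.75). Gzma, a granule protease, went from 2.01 and 2.47 to 17.6 and 15.4 and on to 86.9 and 77.2. Neither Tbx21 nor Eomes itself passed this test. Of 25 other fate and exhaustion factors 2 rose, Nr4a2 (1.34) and Nfatc1 (0.95), both of them activated by receptor signalling. None of 8 stem-like genes, 8 residency genes or 2 E proteins was called.

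In AG_CPI against NO_AG the inhibitory list again had 7 of 9 higher and none lower, with Lag3 at 3.92, Havcr2 at 3.87, Pdcd1 at 3.66 and Ctla4 at 2.97, and the effector list 8 of 12 higher with Gzma at 5.18, beside 3.64% of all genes called. These 2 comparisons share the NO_AG mice. Of the 25 other factors 8 rose, among them Zeb2 (1.58), Nr4a2 (1.48), Satb1 (1.45) and Bhlhe40 (1.28), and 1 fell, Zfp683 (-1.38, named after its value was seen), which encodes Hobit, the partner of Prdm1 in resident cells. Of 8 stem-like genes 1 fell, Trat1 (-4.02), an adaptor of the T cell receptor. Of 8 residency genes Rgs1 (0.95) and Itga1 (1.05) rose and Cd69 fell (-0.94).

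In the cells without Trbv13-3, AG_CPI against AG called 1 of 26 other factors, 1 of 9 inhibitory, 2 of 12 effector, 1 of 7 stem-like and 2 of 7 residency genes, beside 0.651% of all genes. The factor Rbpj, the effector of Notch signalling, rose (1.14), as did Ctla4 (1.87), Klrd1 (0.97) and Itga1 (1.01), while Trat1 (-3.19), Cxcr3 (-0.92) and Cd69 (-0.89) fell. Trat1 was 1.84 and 3.24 under NO_AG, 2.41 and 1.23 under AG, then 0.0681 and 0.151 under AG_CPI, lowest in both AG_CPI mice as Tcf7 was. In the cells with Trbv13-3 the same comparison raised Il7r, the interleukin 7 receptor of memory cells (1.76, 1 of 5 stem-like genes), the chromatin organiser Satb1 (1.60, 1 of 24) and Itga1 (1.68), and lowered Ccl5 (-1.07) and Prf1 (-1.002), 2 of 13 effector genes, beside 0.672% of all genes called. Il7r there was 0.654 and 0.623 in AG and 2.18 and 2.76 in AG_CPI, while none of the 9 inhibitory genes was called.

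Between cells with and without Trbv13-3 in AG, where 8.78% of all genes were called, 7 of 25 other factors rose, including Zeb2 (1.38), Nr4a2 (1.26), Rbpj (1.09) and Bhlhe40 (0.61), and 2 fell, Klf2 (-0.95) and Nfatc2 (-0.79). Of 9 inhibitory genes 4 rose, including Havcr2 (1.98), Ctla4 (1.30) and Entpd1 (1.29), and 2 fell, Cd160 (-1.02) and Cd101 (-0.72). Nfatc2 and Cd101 are named to complete these counts, after their values were seen. Of 13 effector genes 7 rose, among them Gzmk (1.46), Klrd1 (1.05) and Il2rb (0.79), and 1, Cxcr3 (-1.19), fell. Of 8 genes on the residency list Itgae (-1.79), Cd69 (-0.99) and Klf2, already counted among the factors, fell and none rose. Klf2 and S1pr1 on that list go with exit from tissue, so a fall of Klf2 is not a fall of a residency gene. Trat1 (-3.31) and Il7r (-1.64) were the 2 of 8 stem-like genes to fall. Of the E proteins 1 of 2, Tcf12, was lower (-0.75). In AG_CPI, with 0.879% of all genes called, none of 13 effector genes was. Il7r was higher with Trbv13-3 (0.57), while Cd160 (-0.70), Cd200r1 (-0.91) and Nfatc1 (-0.66) were lower. The interaction, AG_CPI minus AG, called 4.14% of all genes. It was negative for 4 of 9 inhibitory genes, Ctla4 (-1.57), Entpd1 (-1.81), Havcr2 (-2.02) and Cd200r1 (-2.11), and positive for none. Of 13 effector genes 5 were negative, among them Gzmk (-1.33), Klrd1 (-0.92) and Il2rb (-0.84), and 1 was positive, Cxcr3 (1.05). Of 25 other factors 4 were negative, Nr4a2 (-1.08), Nfatc1 (-1.12), Rbpj (-0.81) and Zeb2 (-1.27), and 1 was positive, Satb1 (0.81, named after its value was seen). Of 8 stem-like genes Il7r (2.22) and Trat1 (2.46) were positive and Cd27 (-0.70) was negative, and of 8 residency genes Itgae (2.11) and Cd69 (1.12) were positive and none negative.

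Detection of the regulators in the same cell was counted, since averages cannot show it. Without Id2, which most cells contained, none of the 6 other members was found in 42.5 to 44.5% of cells with Trbv13-3 in AG and in 65.9 to 67.8% in AG_CPI. In cells without Trbv13-3 these shares were 43.0 to 49.5% in NO_AG and AG and 54.3 to 61.4% in AG_CPI. At such low detection a missing UMI does not show that the gene is off.

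Observed pairs were set against the number given by independent detection within each mouse, summed over mice. Tcf7 and Prdm1 were found together in 10 CD8 T cells where independence gives 20.5, and in no mouse above it. Tox and Eomes were found together in 51 cells against 26.5, above independence in 4 of 6 mice, and in the cells with Trbv13-3 in 30 against 20.7, above it in 4 of 4 mice. Tcf7 and Id3 met in 57 cells against 45.5 (5 of 6 mice), and Tox and Tcf7 in 39 against 56.3. Deeper cells show more of every gene, so the counts were repeated in cells thinned to 1500 UMIs. There Tox with Tcf7 was found in 11 cells against 21.1, Tox with Id3 in 3 against 11.5, Tcf7 with Prdm1 in 2 against 6.82, and Tbx21 with Prdm1 in 1 against 7.06. Tcf7 with Id3 was found in 27 against 19.4. Tox with Eomes was found in 10 against 6.45, and in the cells with Trbv13-3 alone in 5 against 4.90. Within the cells without Trbv13-3 alone, thinned, Tcf7 and Id3 met in 24 against 20.9 cells and Tox and Tcf7 in 8 against 13.5. These are sparse counts and are given without a test.

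**Figure D3:**
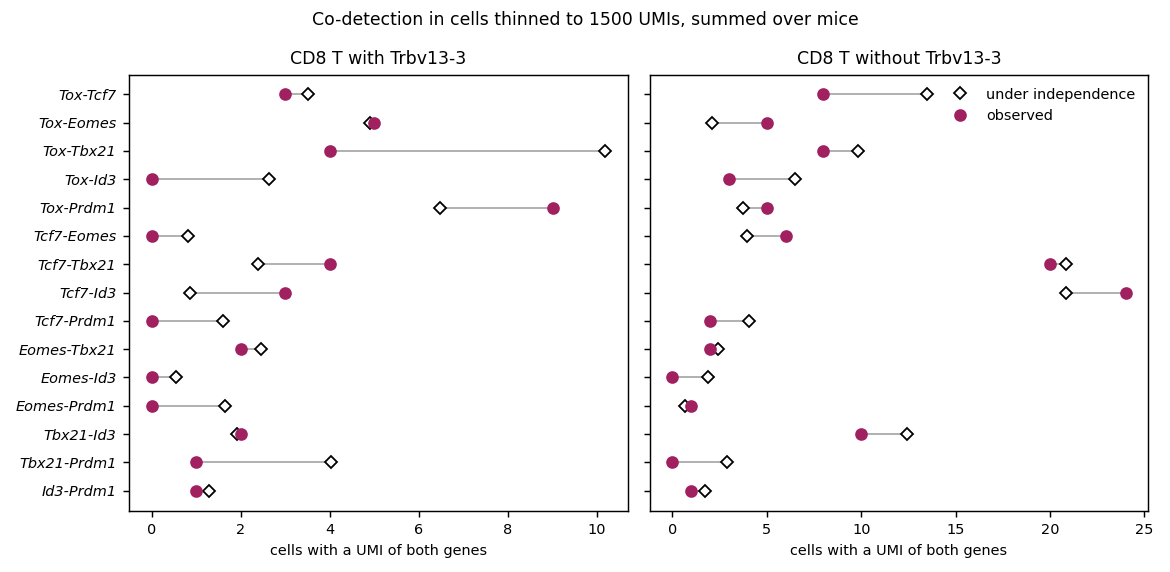
Number of cells in which 2 regulators were both found (x axis, filled points) and the number given by independent detection within each mouse (open diamonds) for each pair (y axis), summed over mice, in cells thinned to 1500 UMIs with Trbv13-3 (left) and without it (right); pairs with Id2 are left out. Tcf7 with Id3 was found more often than under independence in both subsets (3 against 0.860 and 24 against 20.9) and Tox with Id3 less often (0 against 2.63 and 3 against 6.49).

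Cells in which a Tcf7 UMI was found were compared, within each mouse, with cells in which none was. Without Trbv13-3, Gzma was lower in the Tcf7 cells of all 6 mice, by log2 ratios of -7.02 to -3.09, and Il7r was higher in all 6 (0.16 to 1.33). Prf1 (-1.99 to -0.12), the repressor Zeb2 (-1.59 to -0.10) and Bhlhe40 (-1.02 to -0.34) were lower in 6 of 6 mice. With Trbv13-3, in the 3 mice with enough such cells, Il7r (0.77 to 1.70), Cxcr3 (0.84 to 1.62) and Id3 (0.24 to 2.23) were higher and Gzmb (-2.47 to -1.88), Prf1 (-2.36 to -0.82) and Prdm1 (-2.18 to -0.96) lower in all 3. In either subset Il7r was higher, and the granule genes Gzma and Prf1 lower, in the Tcf7 cells of every mouse compared.

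Cells with a Tox UMI were set apart from the rest in the same way. With Trbv13-3 they had more of the related factor Tox2 (0.35 to 1.72), of Nr4a2 (0.38 to 1.03), Eomes (0.054 to 1.21), Tigit (0.12 to 0.36) and Havcr2 (0.056 to 0.27) in all 4 mice. They had less Gzma (-1.24 to -0.19), Id3 (-1.68 to -0.13) and the residency integrin Itgae (-0.63 to -0.19) in all 4. Without Trbv13-3, in 5 mice, they had more Pdcd1 (0.73 to 1.20) and Cd27 (0.39 to 0.96) and less Id3 (-1.17 to -0.27), Il7r (-1.59 to -0.30) and Itgae (-3.15 to -0.17). Cells with a Tox UMI were deeper (medians of 2981 against 2548 UMIs in NO_AG mouse 2), and both the base genes and those named were chosen after their values were seen.

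**Figure D4:**
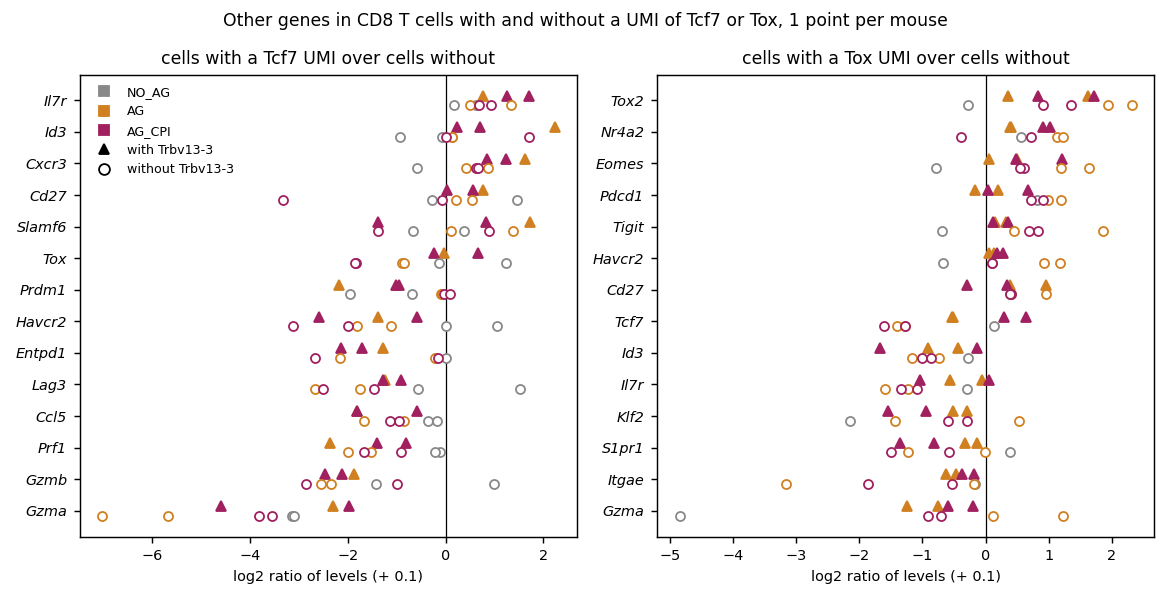
Log2 ratio of the mean level (+ 0.1) of selected genes in cells with a UMI of Tcf7 or of Tox over cells without one, 1 point per mouse; the genes were selected after their values were seen. In Tcf7 cells without Trbv13-3, Gzma lies at -7.02 to -3.09 and Il7r at 0.16 to 1.33 in the 6 mice.

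The same regulators were read in the lymphocytes outside the CD8 gate. T cells of the alpha-beta clusters outside this gate numbered 116 to 435 per mouse. In the AG and AG_CPI mice most of them had both Cd8 and Trdc UMIs, so this is not a class without CD8 T cells. Tcf7 in this class was 1.37 and 1.68 under NO_AG, 0.646 and 0.493 under AG, then 0.096 and 0.276 under AG_CPI. It fell in AG against NO_AG (-1.21, adjusted p = 0.0280), where 170 of 7145 genes were called (2.38% of those tested), and in AG_CPI against NO_AG (adjusted p = 1.29e-05), where 379 were called (5.3% of those tested) and its log2 difference was -2.52. Tox rose by 1.35 (adjusted p = 0.0429), Prdm1 by 1.28 (0.0324) and Id2 by 0.62 (0.0471) in AG. In AG_CPI against NO_AG Id2 rose by 0.67 (adjusted p = 0.0182) and Id3 fell by 1.47 (0.00516), and AG_CPI against AG called 18 genes (0.252% of those tested) and no member. Tcf7 in that comparison (-1.30, adjusted p = 0.0637) was called without NO_AG mouse 1 (0.041), without NO_AG mouse 2 (0.0403) and under the replicate block (0.019). Against NO_AG, Tox in AG_CPI (0.87, adjusted p = 0.165) was called without NO_AG mouse 1 (1.42, 0.00601), and Prdm1 (1.01, adjusted p = 0.0694) without NO_AG mouse 2 (1.47, 0.00338). The composition of this class moved with the groups, so a change in level and a change in which cells were present cannot be told apart. Cells with both Cd8 and Trdc UMIs made up 0 and 0.862% of it under NO_AG, 54.8 and 55.0% under AG, then 89.2 and 89.0% under AG_CPI. Of those cells 63.8 to 90.3% had a Trbv13-3 UMI in the AG and AG_CPI mice, and their Tcf7 was 0.084 to 0.183 and their Tox 0.378 to 0.943, beside 0.110 to 0.210 and 0.476 to 1.24 in CD8 T with Trbv13-3. Tcf7 in AG_CPI kept its call in all 10 alternatives. The other calls in AG were kept in 3 of 10 alternatives for Tox, 4 each for Prdm1 and Id2 and 6 for Tcf7, and those in AG_CPI in 6 for Id2 and 7 for Id3. All 6 were lost without the filter on low values, and Tox and Id2 in AG without TMM scaling (0.0527 and 0.0883). Tox in AG lost its call without NO_AG mouse 2 (0.80, adjusted p = 0.128), AG mouse 1 (1.62, 0.0706), AG mouse 2 (1.09, 0.299), AG_CPI mouse 1 (1.34, 0.0773) or AG_CPI mouse 2 (1.35, 0.0693). Prdm1 in AG lost it without NO_AG mouse 1 (0.81, adjusted p = 0.126), AG mouse 1 (1.25, 0.249), AG mouse 2 (1.32, 0.189), AG_CPI mouse 1 (1.27, 0.0737) or AG_CPI mouse 2 (1.28, 0.0709). By adjusted p, Id2 in AG lost it without NO_AG mouse 1 (0.0918), NO_AG mouse 2 (0.132), AG mouse 1 (0.132) or AG mouse 2 (0.28). Tcf7 in AG lost it without NO_AG mouse 2 (0.0914), AG mouse 1 (0.085) or AG mouse 2 (0.246). Id2 in AG_CPI lost it without NO_AG mouse 1 (0.0513), NO_AG mouse 2 (0.0858) or AG_CPI mouse 1 (0.441), a difference of 0.40 without the last, and Id3 without AG_CPI mouse 1 (0.0869) or AG_CPI mouse 2 (0.0579).

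The gamma-delta T-like cells, named from Trdc and receptor gamma segments, had a Tcf7 level above that of CD8 T in every mouse with 10 such cells: 2.14 and 1.67 in NO_AG and 1.90 and 2.51 in AG, and 3.58 in the 17 cells of AG_CPI mouse 2. Their Tox was 1.37 and 1.46 in NO_AG and 1.02 and 0.987 in AG, the reverse order of CD8 T, although the difference (-0.32, adjusted p = 0.681) was not called. Eomes had no UMI in any of them, and Tbx21 lay between 0.00306 and 0.037 in the NO_AG and AG mice. The 2 AG_CPI mice had 6 and 17 such cells, against 523 and 366 in NO_AG. Limma called 0 of 7184 genes in AG against NO_AG (0% of those tested), with 630 at an unadjusted p under 0.05, and 4 of 7 members passed the filter on low values. With AG mouse 1 left out 2112 genes were called and Tcf7 among them (0.57, adjusted p = 0.0215). That fit takes its spread from the 2 NO_AG mice alone and assumes it for the AG mouse left, so nothing is read from it.

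The cells called NK/ILC1-like had Tbx21, a defining factor of that lineage, at 0.617 and 0.842 in NO_AG and 1.29 and 0.392 in AG, and Tcf7 at 1.93 and 1.45, and 2.52 and 1.53. Their label is a limited one, since Cd3e was found in 57 to 74% of them and Ncr1 in 5.9 to 26.7%. Eomes was 0.089 and 0.064 in NO_AG with no UMI in AG. ILC2-like cells had Tox at 0.483, 0.760, 0.620 and 0.975 and Tcf7 at 1.29, 1.59, 1.01 and 1.38 over the NO_AG and AG mice, and no Eomes UMI. Il1rl1, a defining marker, was found in no more than 0.66% of them and Cd3e in 23 to 37%. None of the 3166 genes tested in the first and none of the 4510 in the second was called (0% in each, with 187 and 235 at an unadjusted p under 0.05). Without AG mouse 1, Tox in NK/ILC1-like cells was called (-1.07, adjusted p = 0.031), again on the spread of the 2 NO_AG mice alone.

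A cluster led by Tnfrsf4, Foxp3 and Ctla4, left unnamed by the marker rule and followed after it was seen, had little Tcf7 and more Prdm1 than CD8 T. Tcf7 gave few molecules, with 2, 0, 4, 2, 0 and 1 UMIs in the 6 mice (38 to 305 cells each), whereas Tox was 1.08 and 1.32 under NO_AG, 1.29 and 1.62 under AG, then 1.19 and 1.90 under AG_CPI. Prdm1 was 0.567 and 1.04, 0.650 and 1.00, and 1.08 and 0.790, above every CD8 T value. No member was called in its 3 comparisons, which called 0, 0 and 11 of 5834 genes (0%, 0% and 0.189%, with 326, 131 and 588 at an unadjusted p under 0.05). Cd4 T cells without Foxp3 were few (24 and 35 in NO_AG, 56 and 52 in AG). Their Tcf7 was 1.63 and 1.80 in NO_AG and 1.36 and 0.495 in AG, and no member was among the 8 of 1961 genes called (0.408% of those tested).

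In the NO_AG mice the order of the classes by mean Tcf7 level was gamma-delta T-like, Cd4 T, NK/ILC1-like, T cells outside the CD8 gate, ILC2-like, CD8 T and last the Foxp3-led cluster. Each neighbour in that order overlapped the next between mice, apart from the Foxp3-led cluster, which lay at 0.124 and 0. Keratinocyte-like cells gave Tox levels of 0 to 0.0739, below every CD8 T value. Id3 is not specific to lymphocytes: keratinocyte-like cells had 0.357 to 1.97 and fibroblast-like cells 11.3 to 16.3 in the 4 mice with at least 10 of them (13.9 and 0.449 in the 8 and 7 cells of the AG_CPI mice), and the part of free RNA in the Id3 level of CD8 T was not tested.

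**Figure D5:**
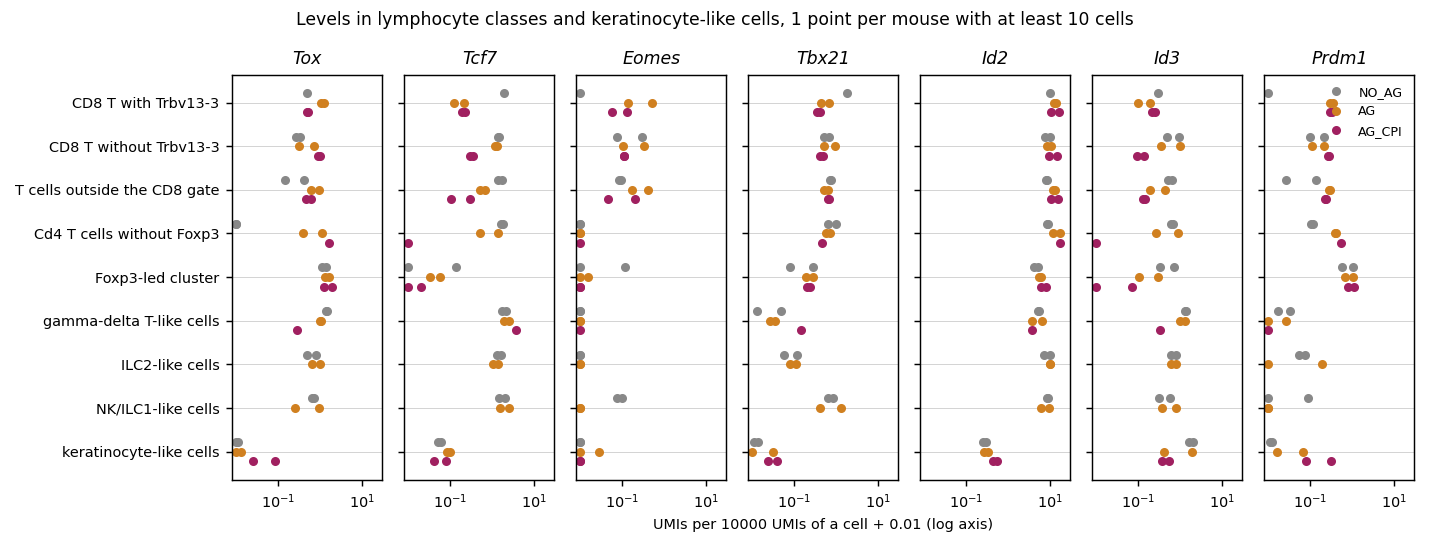
Level of each regulator (x axis, mean UMIs per 10000 + 0.01, log scale, 1 panel per gene) in the lymphocyte classes and in keratinocyte-like cells (y axis), 1 point per mouse with at least 10 cells, coloured by group. Tcf7 is high in gamma-delta T-like cells (1.67 to 3.58) and near the keratinocyte-like level in the Foxp3-led cluster (0 to 0.124).

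Across 35 class-by-mouse columns of lymphocytes with at least 10 cells, the genes most like each regulator were listed by Pearson correlation of log2 levels over 8270 genes, as a description, since the columns share mice and depth. Tcf7 went with Evl (0.873), Cd7 (0.823) and Rgcc (0.822), and Tox with Ubash3b (0.833), Lmbrd1 (0.755) and Ube2e3 (0.739). Prdm1 followed Sdcbp2 (0.924), Ctla4 (0.911) and Slamf6 (0.856), and Id2 followed Cxcr6 (0.818), Sub1 (0.816) and Cd226 (0.793). Tbx21 was closest to Cxcr3 (0.84), Eomes to Ppp2r2c (0.792) and Id3 to Tespa1 (0.811). Among the members themselves Tcf7 ran with Id3 (0.758) and against Prdm1 (-0.911) and Tox (-0.521), Id3 ran against Prdm1 (-0.64), and Tbx21 ran with Id2 (0.544). The other pairs lay between -0.407 and 0.355.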

How the data were processed

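Single-cell RNA was measured in skin of 6 mice, 2 each in NO_AG, AG and AG_CPI. Reads were aligned to mm10 with Cell Ranger 3.1, per the submitters' processing notes. The deposited values are log10(1 + UMIs per 10000), as the values themselves show: 100% of them gave whole UMIs on the log10 scale and 66.9 to 69.8% on the natural log scale. The deposited genes hold 95.4 to 96.7% of each cell's UMIs. The authors' files hold no cells under 1501 or over 14995 UMIs.

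Cells needed 200 or more genes, with mitochondrial UMIs at 20% or less (51 failed), and Scrublet removed 663 doublets, 1.38 to 3.97% per library. Cells were clustered with scanpy 1.11.5 (2000 variable genes without the 7 members, 30 principal components, 15 neighbours, Leiden resolution 1) into 51 clusters. Of these, 25 were named from marker lists by a rule settled after their leading genes were seen, with 1 other rule for ties tried.

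For each mouse and class with at least 10 cells, mean UMIs per 10000 were scaled by trimmed means of M-values (TMM) and tested as log2(mean + 0.1) with limma 3.58.1 (R 4.3.3; trend and robust). All groups with 2 such mice shared 1 fit, with genes of at least 10 UMIs and a mean of 0.1 in 2 columns. Cells with and without Trbv13-3 were compared with the mouse as a block. Benjamini-Hochberg adjustment ran over all genes tested, at 0.05. Fits had 3 residual degrees of freedom where all 3 groups entered, and 2 for the Trbv13-3 contrast and where 2 groups entered (CD8 T with Trbv13-3, gamma-delta T-like, Cd4 T, ILC2-like and NK/ILC1-like cells). A fold change is on the log2(mean + 0.1) scale and understates low genes. The tests were planned on means per mouse, as values scaled per cell were expected. No count model was run, although whole UMIs were recovered. Some of the tests were run on simulated counts with a fixed dispersion and no mouse effect. That setting is simpler than the data, so it does not give the error rates of the tests here.

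All 7 members are named in every CD8 T test. From each companion list up to 4 members are named, those with the smallest p among those called, and the 4 others in the text are marked as named after their values were seen. The 3 genes most like each member are ranked by Pearson correlation. The members and lists were chosen with earlier results of these data known. Added after seeing the data were the Foxp3-led class, the between-group tests in cells with another beta segment, the alternatives for classes outside CD8 T, the printed promoters and the genes compared in cells with a Tcf7 or Tox UMI. Co-detection was planned as odds ratios and is given as observed against independent counts, a change made after seeing it. Where a mouse is left out, the one that remains is assumed to vary like the other groups. Alternatives were leaving out each mouse, scaling, pseudocount 0.5, no filter, thinning to 1500 UMIs, ratios of summed UMIs, other gates, doublets kept, members kept among the variable genes, and the replicate block.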

Additional observations from a re-analysis of the deposited data

Results flagged for a closer look

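The contrast between CD8 T cells with and without Trbv13-3 differed between AG and AG_CPI for 3 of the 7 regulators, by limma's test of the interaction, which called 306 of 7393 genes (4.14%). The difference (AG_CPI minus AG, log2) was 2.21 for Id3 (adjusted p = 9.9e-08), 1.91 for Tcf7 (adjusted p = 3.13e-07) and -1.97 for Tox (adjusted p = 7.49e-12). For Tox the ratio of cells with over cells without Trbv13-3 was 1.51 and 0.76 in the AG mice and -0.78 and -0.87 in the AG_CPI mice. For Tcf7 it was -2.18 and -2.58 in AG and -0.48 and -0.46 in AG_CPI, and for Id3 -1.92 and -1.25 in AG and 0.71 and 0.55 in AG_CPI. The Id3 contrast within AG_CPI was not called, and it was -0.0743 with the Cd3 gate. All 3 differences were in the same direction in each of the 16 alternatives. No group had the 4 mice needed to look for a single mouse far from the others.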

How the results depend on the processing

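Of 70 member results in CD8 T, 19 were called, in comparisons that called 0.194 to 8.78% of all genes. These comparisons overlap in mice and cells, so the results are not independent. All 19 kept their direction in every alternative run and 3 their call in every one, and of the 51 not called 22 changed sign somewhere. The cause of each change was not tested. Thinning to 1500 UMIs moved 35 of 42 shares of cells with a UMI by more than their counting interval, and admitting Trdc UMIs moved 5. The replicate numbers did not pair the mice: the correlations of same-numbered deviations in CD8 T were -0.0911, 0.00836 and -0.164.

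Counts of called genes are given in the order AG against NO_AG, AG_CPI against AG, AG_CPI against NO_AG. Without the filter on low values they were 50, 1 and 119 in CD8 T and 30, 16 and 149 without Trbv13-3. With the Cd3 gate they were 50, 1 and 149, and 13, 7 and 65, and the Trbv13-3 contrast gave 372 (AG), 21 (AG_CPI) and 103 (difference). Thinned, CD8 T gave 6 for AG_CPI against AG and 164 against NO_AG, cells without Trbv13-3 gave 28 for AG against NO_AG and 149 for AG_CPI against NO_AG, cells with Trbv13-3 gave 28, and the contrast 430, 33 and 196. Ratios of summed UMIs gave 7 for AG_CPI against AG in CD8 T, 80 with Trbv13-3, and 364, 22 and 163 for the contrast. Admitting Trdc gave 6 for AG_CPI against AG, 10 for the contrast in AG_CPI and 133 for its difference. Doublets kept gave 73 with Trbv13-3. Limiting the comparison set to another beta segment gave 159 for the contrast in AG_CPI, and 13 and 109 for AG against NO_AG and AG_CPI against AG. The replicate block gave 104 and 107 for those last comparisons without Trbv13-3 and 11 with Trbv13-3, where Tox lost its call (adjusted p = 0.139) and numbers crossed between the groups gave 332. Without the mouse block (no replicate block) the contrast gave 62, 2 and 3.

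Leaving out 1 mouse at a time gave 56 to 320, 3 to 18 and 85 to 418 in CD8 T, 15 to 112, 24 to 142 and 101 to 361 without Trbv13-3, 0 to 123 with Trbv13-3, and 263 to 559, 3 to 99 and 30 to 398 for the contrast. In the other classes it gave 87 to 286, 1 to 58 and 139 to 462 for T cells outside the gate, 2 to 2112 for gamma-delta T-like, 6 to 88 for Cd4 T, 0 to 284 for ILC2-like and 0 to 829 for NK/ILC1-like cells, and 0 to 5, 0 to 1 and 1 to 18 for the Foxp3-led cluster. There, without the filter, T cells outside the gate gave 66, 1 and 159, Cd4 T 25, ILC2-like cells 3 and the Foxp3-led cluster 2 in AG_CPI against NO_AG. A pseudocount of 0.5 gave 4, 1 and 18 in that cluster, and no TMM gave 2 in Cd4 T. The replicate block gave 30 for AG_CPI against AG outside the gate, 102 in gamma-delta T-like, 26 in Cd4 T, 12 in ILC2-like and 16 in NK/ILC1-like cells, and 8 and 23 in the Foxp3-led cluster (AG and AG_CPI against NO_AG).

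Signs that turned, all of differences not called, were as follows. With the Cd3 gate Tox in CD8 T was 0.0361 (AG_CPI against AG), Id2 -0.016 and Id3 0.222 without Trbv13-3 (AG against NO_AG), Id2 0.0351 with Trbv13-3 (0.0128 without TMM), and in the contrast Tbx21 0.0224 (AG) and -0.119 (difference) and Id3 -0.0743 (AG_CPI). Tbx21 in the contrast in AG_CPI was 0.0999 with Trdc admitted. Without Trbv13-3, AG against NO_AG, Prdm1 was -0.0286 with members kept among the variable genes, Id3 0.0273 by ratio of sums, and with another beta segment Tcf7 was 0.376, Eomes -0.354 and Id3 0.183 (Eomes 0.145 for AG_CPI against AG). Prdm1 with Trbv13-3 was 0.147 by ratio of sums. In gamma-delta T-like cells Id2 was -0.122 without TMM and -0.0312 without the filter, in ILC2-like cells Id3 -0.00599 and -0.0498, in NK/ILC1-like cells Tbx21 -0.131 and in the Foxp3-led cluster Tox -0.0436 without the filter. Leaving out 1 mouse turned these ranges through 0: in CD8 T, Eomes -0.247 to 1.09, Tbx21 -0.261 to 0.467 and Id3 -1.23 to 0.0943 (AG against NO_AG), Tox -0.523 to 0.189 and Id2 -0.152 to 0.446 (AG_CPI against AG), Eomes -1.02 to 0.219 (AG_CPI against NO_AG). Without Trbv13-3 they were Eomes -0.422 to 0.736, Id3 -0.704 to 0.576, Prdm1 -0.285 to 0.455, Tbx21 -0.143 to 0.668 and Tcf7 -0.172 to 0.00356 (AG against NO_AG) and Id2 -0.0399 to 0.592 (AG_CPI against AG). With Trbv13-3 they were Prdm1 -0.153 to 0.0341, Tcf7 -0.0825 to 0.457 and Id2 -0.308 to 0.282, and in the contrast Eomes -0.449 to 0.135 (AG_CPI) and Tbx21 -0.0885 to 0.247 (difference). Outside the gate they were Id2 -0.21 to 0.306 (AG_CPI against AG) and Eomes -0.379 to 0.719 (AG_CPI against NO_AG). In AG against NO_AG they were Id2 -0.299 to 0.344 and Id3 -0.242 to 0.0701 in gamma-delta T-like cells, Id3 -0.158 to 0.19 in ILC2-like cells, and Tox -1.07 to 0.471, Tcf7 -0.0200 to 0.646, Tbx21 -0.649 to 0.835, Id2 -0.356 to 0.259 and Id3 -0.0641 to 0.851 in NK/ILC1-like cells. In the Foxp3-led cluster they were Tbx21 -0.233 to 0.877 and Prdm1 -0.305 to 0.424 (AG against NO_AG), Tox -0.265 to 0.327, Tbx21 -0.246 to 0.116, Id2 -0.00773 to 0.467 and Prdm1 -0.124 to 0.392 (AG_CPI against AG), and Tox -0.0237 to 0.577, Tbx21 -0.283 to 0.819 and Prdm1 -0.152 to 0.567 (AG_CPI against NO_AG).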
